A study of Mus musculus with 576 samples.

Results

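Control p27 high stem cells are single long-term haematopoietic stem cells, sorted as CD150+ CD48- cKit+ Sca1+ cells from mouse bone marrow, that the sort placed in the high class of a p27 marker and that came from animals without LPS. A cell was kept when it had at least 50000 reads on genes and at least 1000 genes with a read, which left 84 of the 96 sorted cells, out of 547 kept of 576 cells in the series. The series sorted 96 cells into each of 6 groups, p27 high, low and negative, each from control marrow and from marrow after LPS, the lipopolysaccharide of bacterial outer membranes. The groups set beside the 84 cells here are the control p27 low cells (93 kept), the control p27 negative cells (95 kept) and the LPS p27 high cells (93 kept). All of them share the CD150, CD48, cKit and Sca1 gate, and marrow of femurs and tibias was the source of each. The labels name no animal, strain, age, LPS dose or time after LPS, and they do not describe the construct behind the p27 marker. Each group therefore counts as 1 sample, the differences between groups carry no test, and the spread between cells is given as a description.

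Haematopoietic stem cells renew blood for life while most of them rest outside the cell cycle, in G0. p27, the product of Cdkn1b, inhibits cyclin-dependent kinases and is abundant in resting cells, and a p27 marker is used to divide cells by depth of rest. Dormant stem cells are known for low protein synthesis, for glycogen and sugar-based metabolism, and for surface proteins such as the protein C receptor, and the study asks which cells of this compartment are dormant and how cytoplasmic calcium bears on it.

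RNA was measured as full-length single-cell cDNA from plates of 96 wells. The 84 cells had 52163 to 1020830 gene reads (median 229696) and together 21714440, and mitochondrially encoded genes took 3.94% to 9.20% of them (median 6.13%). Of all reads in these cells 27.3% lay on genes, 60.2% were not aligned and 2.92% came from spike-in RNA added to the wells. The 12 cells left out held 8692 to 45966 gene reads, all had over 1000 genes, and 9 of them carried numbers from 1 to 32. Gene reads per spike-in read had a median of 4.45 in the cells numbered 1 to 32, against 18.7 in cells 33 to 64 and 20.2 in cells 65 to 96. The p27 low cells (4.88, 21.6 and 21.9) and p27 negative cells (7.13, 33.8 and 36.4) were likewise lowest in this measure in cells 1 to 32, and the LPS p27 high cells (27.55, 25.6 and 20.6) were not. In the control p27 high cells median gene reads were 233995, 194521 and 248248 in the 3 ranges, and median spike-in reads 49264, 11174 and 10996. Range and this ratio of reads cannot be told apart. What these numbers stand for is not stated, and values are given for the 3 ranges (23, 29 and 32 kept cells) where they differ. Nothing given matches the LPS cells of a range to the control cells of the same numbers. LPS treatment and any difference in preparation between control and LPS cells cannot be told apart. Levels below are counts scaled to 1000000 gene reads (CPM), summed over the 84 cells or within 1 cell, and TPM where genes of different length are compared. A gene is called detected in a cell when at least 1 read remained after the cell was thinned to 50000 reads, and 95% intervals (Poisson for levels, Clopper-Pearson for shares of cells) cover counting of reads and drawing of cells only. Reads carry no molecular identifiers, so copies made by PCR are counted.

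The 4 genes that mark these cells were each strong in some cells and absent from others. Sult1a1 (chr7:126672865-126676432 in mm10), a cytosolic sulfotransferase, stood at 354 CPM (346 to 362) and was detected in 44 of 84 cells (52.4%, 41.2% to 63.4%). Its level ran from 0 to 5438.5 CPM per cell with a median of 9.36, 34 cells had no read at full depth and 11 cells had at least 1000 CPM. The 21 cells with most Sult1a1 reads held 86.8% of them, so the summed level describes those cells more than the typical cell. Procr (chr2:155751117-155755471), the gene of the protein C receptor, a surface protein of long-term stem cells, was the most widely detected of the 4. It stood at 228 CPM, was detected in 60.7% of cells (49.4% to 71.2%), and ran from 0 to 1419.8 CPM per cell with a median of 117. Pygm (chr19:6384399-6398459), muscle glycogen phosphorylase, which frees glucose 1-phosphate from glycogen, stood at 92.4 CPM with reads in few cells. It was detected in 27.4% of cells (18.2% to 38.2%), had no read in 55, and reached 939 CPM in the highest cell. Its level was 34.9 CPM in cells 1 to 32, 155 in cells 33 to 64 and 88.3 in cells 65 to 96. Cdkn1c (chr7:143458339-143461050), the gene of the inhibitor p57, stood at 49.1 CPM, was detected in 26.2% of cells (17.2% to 36.9%) and ran from 0 to 582 CPM per cell with a median of 0.

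**Figure D1:**
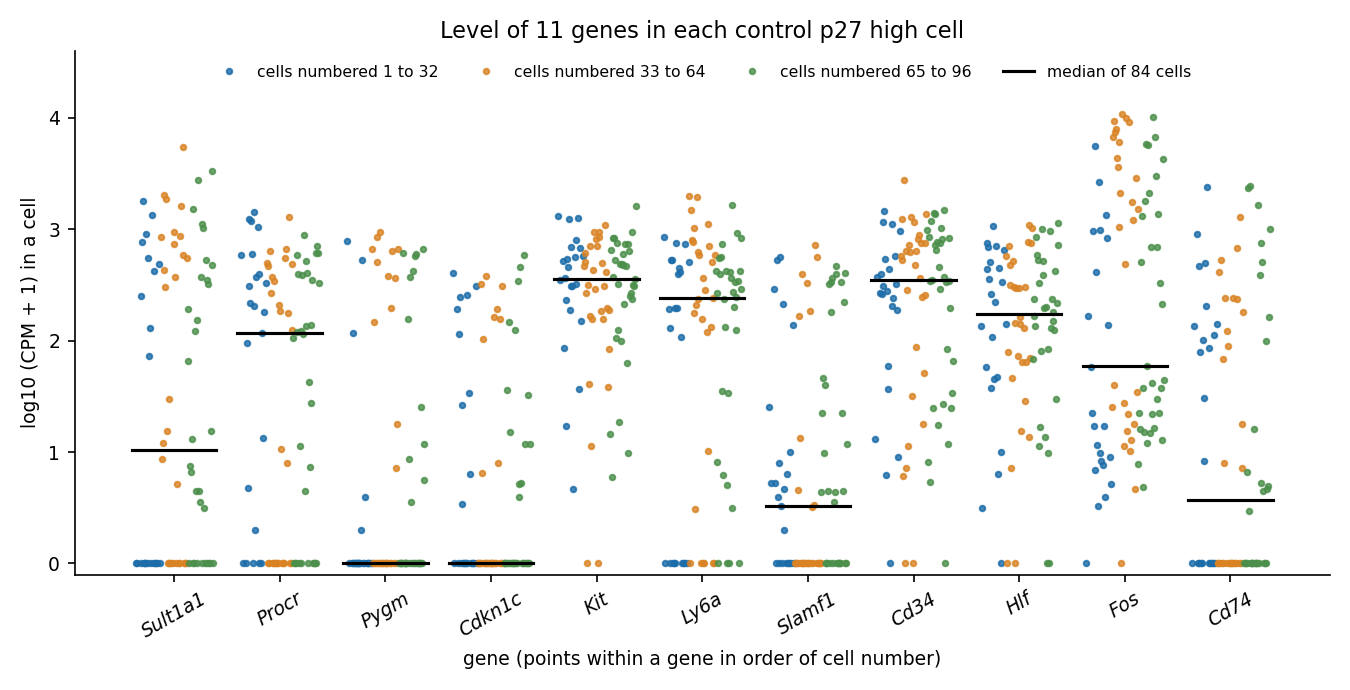
Level of 11 genes in each of the 84 control p27 high cells, as log10 of CPM plus 1 on the vertical axis, 1 point per cell, coloured by range of cell numbers, with a line at the median of each gene. Points within a gene stand in order of cell number. Sult1a1 and Fos each hold cells over 1000 CPM beside many cells near 0, and the medians of Pygm and Cdkn1c are 0.

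Counted per cell, the 4 markers overlapped only in part. None of the 4 was detected in 19 cells, 1 in 20 cells, 2 in 21 cells, 3 in 18 cells and all 4 in 6 cells. Spearman's rho between the markers, on thinned reads across the 84 cells, lay between 0.23 (Sult1a1 and Pygm) and 0.43 (Sult1a1 and Procr), where 98% of all gene pairs detected in at least 30% of cells lay between -0.25 and 0.27. Pygm and Cdkn1c, detected in 27.4% and 26.2% of cells, lie below that limit of detection, so those pairs are no direct scale for them. Within the 3 ranges the rho was 0.03, 0.19 and 0.32 for Sult1a1 and Pygm, 0.26, -0.05 and 0.46 for Procr and Cdkn1c, and 0.45, 0.44 and 0.41 for Sult1a1 and Procr. The genes most like them among genes detected in at least 30% of cells were Pdzk1ip1 for Sult1a1 (rho 0.52, and 0.49 to 0.55 within the 3 ranges of cell numbers) and Tmem176a for Pygm (rho 0.54, and 0.33 to 0.78 within them). For Procr the highest value was 0.46, with Tmem176a, and for Cdkn1c it was 0.48, with Pdzk1ip1, both under the size of 0.5 used here for describing a relation. These correlations share the libraries and the depth of the cells and are descriptions.

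The same 4 genes were lower in the other control groups. Sult1a1 stood at 60.5 CPM in p27 low cells and 10.8 in p27 negative cells, and at 315 in LPS p27 high cells. Its log2 difference from LPS p27 high cells was 0.17 in all and -0.75, 0.96 and -0.04 in the 3 ranges of cell numbers, so its direction there is not fixed. The LPS cells of a range are not known to match the control cells of that range. Procr stood at 93.1, 15.99 and 89.4 CPM in the same groups, Pygm at 25.1, 0.673 and 10.9, and Cdkn1c at 26.6, 15.6 and 22.1. Measured as log2 of CPM plus 1, Pygm differed most from p27 negative cells, by 5.80, followed by Sult1a1 at 4.91 and Procr at 3.75. Against p27 low cells, 3 of the 4 were at least 2-fold higher here, where 7.71% of the 8682 genes with at least 20 CPM in either group were, and Cdkn1c was 0.86 higher. Against p27 negative cells 4 of 4 were at least 2-fold higher, where 11.4% of 8721 genes were. Against LPS p27 high cells 3 of 4 were, where 11% of 8659 genes were. The shares of genes at least 2-fold lower here were 6.21% against p27 low, 7.68% against p27 negative and 6.78% against LPS p27 high cells. In numbers of genes, 669 were higher and 539 lower than in p27 low, 993 and 670 than in p27 negative, and 954 and 587 than in LPS p27 high cells. Scaled by edgeR's TMM factors the same counts were 578 and 583, 801 and 836, and 700 and 766, and higher genes no longer outnumbered lower ones under these factors, which shift every log2 difference by -0.05, -0.12 and -0.16. These 4 genes were named as markers with results of these data known, and the 3 comparisons share the 84 cells. The log2 difference of Cdkn1c from p27 low cells was 1.06 without the top cell of each group, 0.53 in cells of 200000 reads or more, and 0.17, 1.18 and 1.33 in the 3 ranges of cell numbers. Pygm stood 0.17, 3.51 and 1.497 apart from p27 low cells in these ranges and Procr 2.07, 1.10 and 0.81, so each of these genes fell short of 2-fold in 1 range. None of the 4 markers was detected in 42 of 93 p27 low cells, 52 of 95 p27 negative cells and 23 of 93 LPS p27 high cells, against 19 of 84 here, and all 4 in 1, 0 and 1 cells against 6. In summed reads, fewer cells with a transcript and less of it per cell cannot be told apart. Shares of cells are given for that reason, in the order p27 low, p27 negative and LPS p27 high. Sult1a1 was detected in 25.8%, 9.47% and 63.4% of cells, the last above the 52.4% here. Procr was detected in 38.7%, 26.3% and 36.6%, and Pygm in 12.9%, 5.26% and 6.45%. Cdkn1c was detected in 13.98%, 20% and 10.75%, against 26.2% here. Its interval in p27 negative cells (12.5% to 29.5%) overlaps the one here (17.2% to 36.9%).

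**Figure D2:**
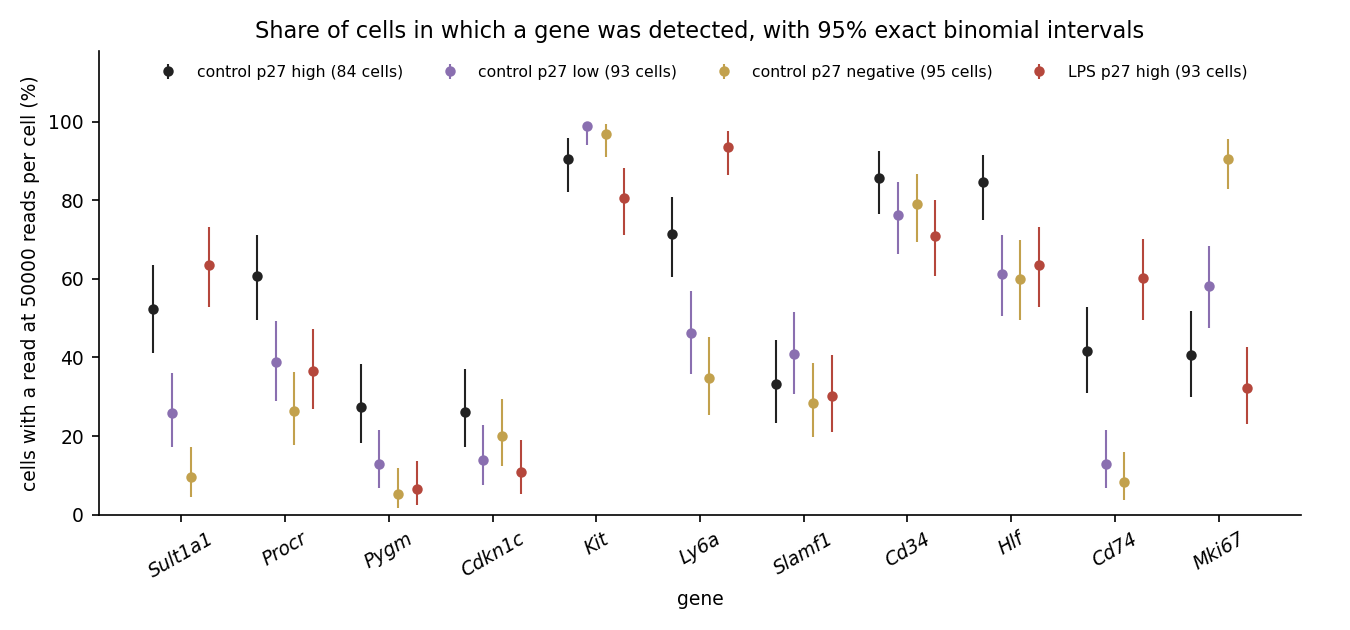
Share of cells, in percent, in which each of 11 genes was detected after thinning to 50000 reads, for control p27 high, low and negative and LPS p27 high cells, with 95% Clopper-Pearson intervals that cover the drawing of cells only. Procr was detected in 60.7% of control p27 high cells, 38.7% of p27 low, 26.3% of p27 negative and 36.6% of LPS p27 high cells.

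Of the genes of the sort gate, RNA of Kit and Ly6a was found in most cells, of Slamf1 in a minority, and of Cd48, whose protein was gated as absent, in 2 cells. Kit, the receptor for stem cell factor, stood at 402 CPM, was detected in 90.5% of cells and had a median of 354 CPM per cell (0 to 1600.2). Ly6a, the gene of Sca1, stood at 331 CPM and was detected in 71.4%, with 19 cells at 0. Slamf1, the gene of CD150, stood at 62.8 CPM and was detected in only 33.3% of cells (23.4% to 44.5%) although the protein was part of the gate. Cd48 was detected in 2 of 84 cells, and 77.3% of its reads came from cell 85 (6.91 CPM, and 1.60 without that cell). Cd34, a sialomucin that falls in adult long-term stem cells, stood at 543 CPM and was detected in 85.7%. Flt3, a receptor of multipotent progenitors, stood at 51.2 CPM with 31.2% of its reads in cell 13 (35.9 without it), and Il7r had no read in any of the 84 cells, which allows a share of up to 4.30% of cells with a read at this depth and sets no limit on cells that express it. Cdkn1b itself, the p27 gene, stood at 74.6 CPM here, 68.5 in p27 low, 81.9 in p27 negative and 108 in LPS p27 high cells, and its RNA did not follow the order of the marker classes. It was detected in 65.5% of the 84 cells, with a median of 43.1 CPM and 0 to 326 per cell.

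Defining markers of other blood and marrow cells were at or near 0 for most cell types. Ctsg, Cd14, Adgre1, Siglech, Cd79a, Pax5, Cd3d, Ncr1, Prss34, Cdh5, Cxcl12 and Lepr had no read in any kept cell. Of the 12 B cell genes 4 had no read, of 12 T and NK cell genes 7, of 8 mast cell and basophil genes 5, of 7 endothelial genes 2 and of 8 stromal genes 3. Their summed levels had medians of 5.48, 7.41, 0, 10.6 and 0 CPM per cell, and highest cells of 843, 970, 402, 1046 and 633 CPM. At least 20 CPM was reached by 1 B cell gene, 2 T and NK cell genes, 2 endothelial genes and 1 stromal gene. In the highest cell of each list, Cd79b led the B cell genes, Lck the T and NK cell genes and Pdgfrb the stromal genes. The stromal list summed to 43.24 CPM here, 3.68 in p27 low, 23.25 in p27 negative and 20.75 in LPS p27 high cells. In that order the B cell list summed to 77.18, 61.31, 86.31 and 46.94, and the T and NK cell list to 99.43, 179.7, 177 and 103.5. Emcn, an endothelial sialomucin also known from stem cells, made up most of the endothelial list at 96.1 CPM in 33.3% of cells, and Cdh5 was at 0. Of 15 granulocyte genes 12 had a read, 3 had at least 20 CPM and 1 was detected in at least 50% of cells. That 1 was Prtn3, the gene of proteinase 3, at 276 of the 370 CPM of the list and in 89.3% of cells. Mpo stood at 20.7 CPM in 4 cells (8.33 without cell 85) and Elane at 2.49 CPM in 2. Of 14 monocyte, macrophage and dendritic genes 10 had a read, and Lyz2, lysozyme, was detected in 97.6% of cells at 832 CPM while Csf1r came from a single cell. Summed over the list, the granulocyte genes had medians of 318 CPM per cell here, 179 in p27 low, 94.6 in p27 negative and 405 in LPS p27 high cells, and the monocyte, macrophage and dendritic genes 929, 823, 590.2 and 735.

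Of the 17 platelet-lineage genes 16 had a read, with a summed level of 175 to 7834 CPM per cell (median 1709.5). Pf4, platelet factor 4, stood at 87.8 CPM with a median of 18.2 per cell, and 57.8% of its reads came from cell 4, without which it stood at 37.8. Of 15 erythroid genes 14 had a read, and most of their sum was Car2, carbonic anhydrase 2, found in every cell and at 2225 CPM in all, while Gata1, Klf1, Hba-a1 and Hbb-bs had a median of 0. Cell 4, picked after its values were seen, held platelet and erythroid genes together: Pf4 at 2374 CPM, Car1 at 977, Itga2b at 588, Gata1 at 540, Gp1bb at 420 and Klf1 at 306, with no read of Mpo. Cell 85, picked the same way, held Mpo at 582 CPM and Cd48 at 247. Against p27 low cells 10 of 13 platelet-lineage genes with at least 20 CPM were at least 2-fold lower here and none higher (median log2 difference -1.78, where all 8682 genes had -0.001). Against p27 negative cells it was 10 of 12 (median -1.52, with 0.045 for all genes), and against LPS p27 high cells 1 of 9 was lower and 3 higher (median 0.37, with 0.10 for all genes). The summed level of the list per cell ran to 12670 CPM in p27 low and 15390 in p27 negative cells with medians of 1758 and 1637.5, near the median here, and in LPS p27 high cells from 167 to 5319 with a median of 1430.0. The erythroid sum per cell had medians of 1824 CPM here, 3075 in p27 low, 3071 in p27 negative and 1952 in LPS p27 high cells, and of 6 erythroid genes 4 were lower here than in p27 low cells and 5 lower than in p27 negative cells. Of all genes measured, 6.21% were lower here than in p27 low cells and 7.68% lower than in p27 negative cells. Part of both lists is expressed by stem cells as well, and what more mature cells contribute to these differences was not tested. Cells with 5 or more reads in at least 50% of the 17 platelet-lineage genes were 2 of 84 here, 15 of 93 p27 low cells and 24 of 95 p27 negative cells. These counts use all reads of a cell. With at least 1 read at 50000 reads per cell, they were 2, 22 and 24. Gata1 stood at 24.8 CPM here (13.5 without cell 4), 186 in p27 low and 182 in p27 negative cells, and Vwf, von Willebrand factor, at 55.5, 158 and 138.

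Among nuclear protein-coding genes ranked by TPM, B2m, the light chain of MHC class I, came first at 15052 TPM, and the 15 highest also held Actb (8928), Slc34a2 (7025), Rpl4 (4896), Rpl8 (4126), Eef1a1 (3307), H2-K1 (3306), Hsp90ab1 (3130), Ifitm3 (3090.0), Ifitm1 (2958), Rplp1 (2937), Rplp0 (2722), H2-D1 (2478) and Car2 (2448). Each of the 15 genes was detected in every one of the 84 cells. B2m ran from 1511 to 18109 CPM per cell with a median of 4774, and Actb from 2947 to 17824 with a median of 8621. The interferon-inducible membrane proteins Ifitm1 and Ifitm3 varied more, with Ifitm1 at 15.9 to 7658 CPM (median 1113) and Ifitm3 at 68.3 to 2758 (median 668). Ifitm1 was also the member of the 15 that differed most from p27 negative cells, at 1214 CPM against 211, and it stood at 574 in p27 low and 1381 in LPS p27 high cells. Slc34a2, a sodium-dependent phosphate carrier best known from lung, had the most reads of the 15, with 659 to 73079 CPM per cell and a median of 13546. Its level differed between ranges of cell numbers, at 5242 CPM in cells 1 to 32, 13793 in cells 33 to 64 and 19430 in cells 65 to 96, which is the order of gene reads per spike-in read. The 15 genes took 5.43% of all gene reads and the 100 genes with most reads 23.6%. Ribosomal protein genes and Gapdh, which is at only 30.8 CPM in these counts, can share reads with near-identical copies, so levels of such genes are uncertain. Pseudogenes of all kinds together held 2.80% of gene reads.

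Each cell showed reads of a minority of the genes seen in the group, and how many it showed depends on depth. Reads of 19696 genes occurred in the 84 cells and 7990 genes had at least 20 CPM. At 50000 reads a cell showed 3098 to 4818 genes (median 3937), and without thinning the median was 5447.5. Of 16802 genes detected in at least 1 thinned cell, 2635 were in at least 50% of cells, 423 in at least 90% and 131 in every cell, of which 92 were nuclear protein-coding genes and 27 pseudogenes. At the other end 7078 genes were detected in under 10% of cells. Among stem cell regulators, detection ranged from every cell (Txnip) over 97.6% (Meis1) and 84.5% (Hlf) to 51.2% (Mecom) and 15.5% (Hoxb5).

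Spread between cells was measured as the squared coefficient of variation of thinned reads (CV2) for 7919 genes, and as the excess of its log10 over the running median of genes of like mean level. The median CV2 was 4.25, and for 1334 genes (16.8%) a single cell held over 25% of the summed reads. Among genes below that limit, Fos, a subunit of the AP-1 transcription factor, had the largest excess (0.99), followed by the phosphatase gene Dusp2 (0.72), Sult1a1 (0.71), Rgs1 and Zfp36 (both 0.62) and Cd74 (0.57). Tango2, Trim47, Grn, Plk2, H2-Aa, Serpina3g, Stambp, Apoe and Pik3r1 completed the 15 with excesses of 0.43 to 0.55. In cells with at least 200000 gene reads and 2000 genes 7 of these 15 were again among the 15 most spread, and within the 3 ranges of cell numbers 2, 3 and 4 were. Early response genes (Fos, Dusp2, Zfp36) and MHC class II genes (Cd74, H2-Aa) thus both lay among the most uneven, next to 1 of the 4 markers. These genes differ in how widely they were detected. Serpina3g, a serine protease inhibitor, was found in every cell at 15.4 to 8337 CPM (median 1565.5), and Apoe, apolipoprotein E, in 95.2% of cells at 0 to 6270 CPM (median 698). Plk2, a polo-like kinase, was detected in 16.7% of cells with a median of 0 and 1703 CPM in the highest cell. Grn, the gene of progranulin, had 23.2% of its reads in cell 14 and stood at 379 CPM with it and 297 without.

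At the even end, 12 of the 15 genes with the lowest excess were pseudogenes of abundant genes, and the other 3 were Gm11808, Rpl38 and Fau. Rpl38, a ribosomal protein, was at 5.60 to 270 CPM per cell with no cell at 0. Among protein-coding genes looked up after the values were seen, Ost4, a subunit of the oligosaccharyltransferase, ran from 0 to 131 CPM (median 31.2) with 5 cells at 0, and Snrpg, a splicing protein, from 0 to 84.7 (median 21.2) with 8 cells at 0. The 5 cells at 0 for Ost4 and the 34 at 0 for Sult1a1 stand beside mean levels of 36.7 and 354 CPM.

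**Figure D3:**
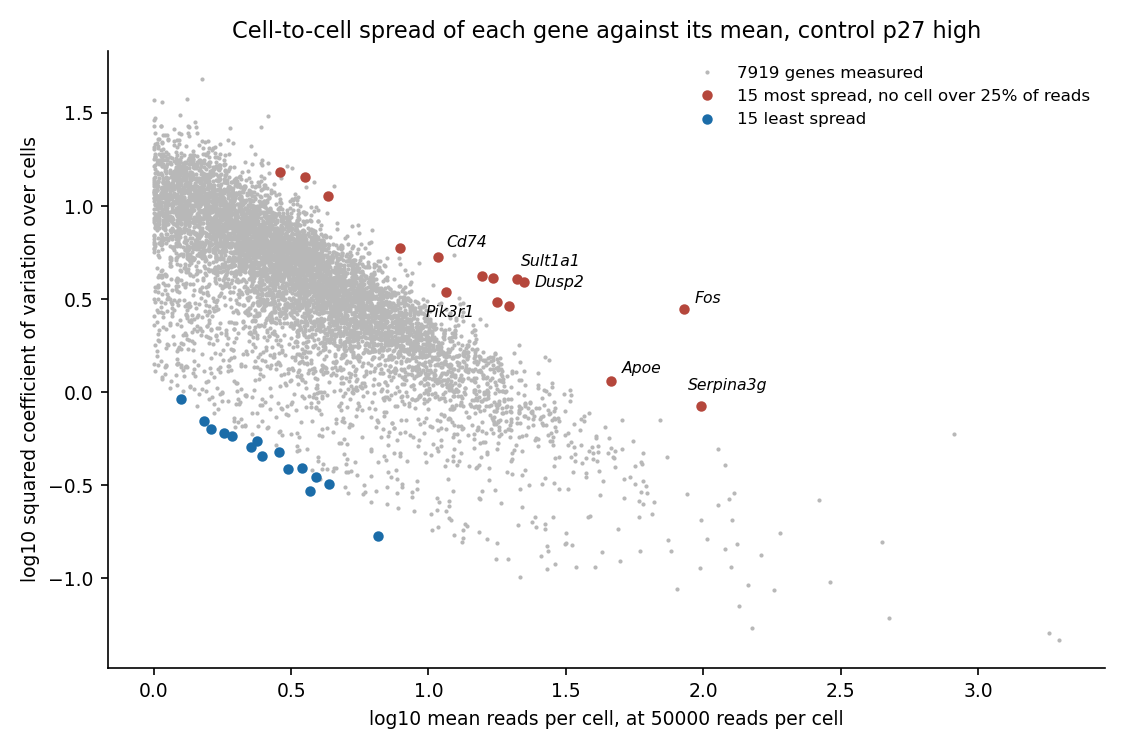
Spread of 7919 genes over the 84 cells, with log10 of the mean reads per cell at 50000 reads on the horizontal axis and log10 of CV2 on the vertical axis, 1 grey point per gene. The 15 most spread genes are red and lie above genes of like mean, with Fos farthest, and the 15 least spread are blue and lie below them.

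Fos (chr12:85473890-85477273) had the largest excess spread among genes of which no single cell held over 25% of the reads. It stood at 1739 CPM, with a median of 57.99 and a range of 0 to 10757 per cell, 29 cells had at least 1000 CPM, 41 had at least 100 and 2 had none. Its sum was 698 CPM in cells 1 to 32, 3045 in cells 33 to 64 and 1518 in cells 65 to 96, and cells with over 1000 CPM occurred in each range. Early response genes of this kind are transcribed within minutes of a stimulus, and their protein products include AP-1 subunits (Fos, Fosb, Jun), a phosphatase of MAP kinases (Dusp1) and an RNA decay factor (Zfp36).

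Sequence upstream of 4 of these genes is shown because Dusp1, Zfp36 and Fosb were higher in the cells with more Fos. The 250 bases before the start of each gene come from RefSeq, build GRCm38.p6, on the strand of the gene, and capitals mark TGACG, the short form of the cyclic AMP response element, or the full element TGACGTCA where it occurs. The windows are chr12:85473640-85473889 (plus strand) for Fos, chr7:19310046-19310295 (minus strand) for Fosb, chr17:26508473-26508722 (minus strand) for Dusp1 and chr7:28379229-28379478 (minus strand) for Zfp36.
Fos: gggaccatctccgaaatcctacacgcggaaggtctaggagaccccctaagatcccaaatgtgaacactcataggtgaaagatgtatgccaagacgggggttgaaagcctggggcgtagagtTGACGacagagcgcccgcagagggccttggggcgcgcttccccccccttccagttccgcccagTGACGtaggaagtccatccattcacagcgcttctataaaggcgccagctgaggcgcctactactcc
Fosb: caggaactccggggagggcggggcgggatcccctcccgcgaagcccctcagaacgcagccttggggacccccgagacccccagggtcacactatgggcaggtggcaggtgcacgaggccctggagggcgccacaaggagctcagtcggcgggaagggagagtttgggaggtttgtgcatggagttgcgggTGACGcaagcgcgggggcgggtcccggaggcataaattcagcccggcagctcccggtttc
Dusp1: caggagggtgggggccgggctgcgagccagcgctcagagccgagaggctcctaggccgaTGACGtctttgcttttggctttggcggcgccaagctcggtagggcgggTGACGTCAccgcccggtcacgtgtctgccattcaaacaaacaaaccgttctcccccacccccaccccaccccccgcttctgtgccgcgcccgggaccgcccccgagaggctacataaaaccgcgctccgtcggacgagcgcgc
Zfp36: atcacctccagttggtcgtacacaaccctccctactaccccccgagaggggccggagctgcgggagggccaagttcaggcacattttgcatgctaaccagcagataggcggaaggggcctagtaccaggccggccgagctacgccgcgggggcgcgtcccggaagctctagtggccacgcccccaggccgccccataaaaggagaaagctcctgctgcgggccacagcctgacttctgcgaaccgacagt
TGACG, searched on both strands, lay 129 and 66 bases before the start of Fos, 60 before Fosb, and 191, 143 and 140 before Dusp1, where the sites at 143 and 140 overlap in 1 full TGACGTCA. The window of Zfp36 held no TGACG, and held a CArG box 58 bases before its start, and that of Fos held a TATA box 33 bases before its start. Over 32851 windows of the same length TGACG occurred in 17.8%, TGACGTCA in 1.55%, a CArG box in 1.47% and a TATA box in 15.6%. A match of letters says nothing of binding in these cells.

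Other early response genes followed Fos in part. Dusp1 stood at 539 CPM and ran from 0 to 2414 per cell (median 227), with 12 cells at 0 and a rho of 0.61 with Fos. Zfp36 stood at 295.5 CPM, ran from 0 to 3162 (median 35.4) and had a rho of 0.58, and Fosb, at 69.1 CPM and 0 to 1038 per cell, one of 0.54. Ppp1r15a, a phosphatase subunit of the stress response, had 0.55. Within the 3 ranges of cell numbers the rho of Fos with Dusp1 was 0.28, 0.75 and 0.72 and with Zfp36 0.21, 0.73 and 0.53, so the relation was weak in cells 1 to 32. Dusp2, the gene with the second largest excess spread, showed no such relation (rho -0.12), although it ran from 0 to 6430 CPM with a median of 168. Jun stood at 290.5 CPM with 0.46, Ier2 at 370 CPM with 0.39, and Junb and Egr1 at 107 and 83.5 CPM with 0.31 and 0.28. Of the 24 genes of the list 20 had a read, and Klf4 (0.276 CPM, 0.0936 without cell 12) and Atf3 (0.138, 0.0464 without cell 62) were close to 0. Against LPS p27 high cells none of 17 members with at least 20 CPM was 2-fold higher here and 7 were lower (median -0.72), among them Junb, Egr1 (467 CPM after LPS) and Atf3 (91.3). Rgs1, outside the list, stood at 845 CPM there against 299 here. Fos was 1739 CPM against 1044 after LPS, 770 in p27 low and 538 in p27 negative cells.

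**Figure D4:**
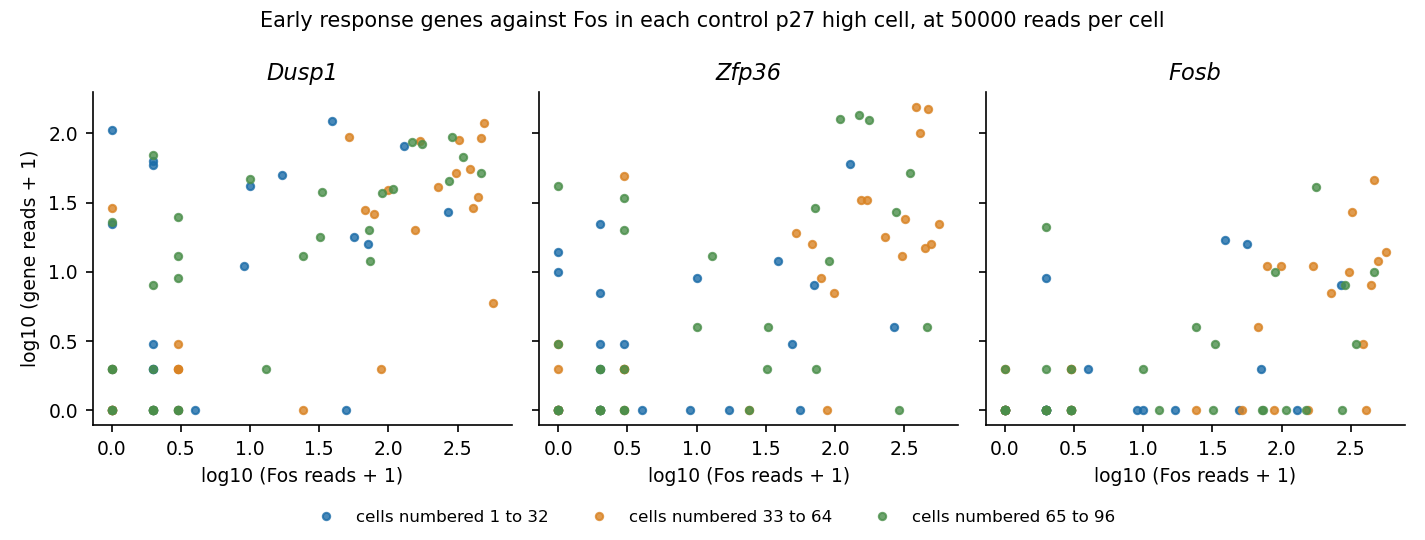
Reads of Dusp1, Zfp36 and Fosb against reads of Fos in the 84 cells, each cell thinned to 50000 reads, both axes as log10 of reads plus 1, 1 point per cell coloured by range of cell numbers. Cells with many Fos reads mostly hold Dusp1 reads, with rho of 0.61, while several of them have no Fosb read.

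Genes of mitosis were low, as they were in p27 low and LPS p27 high cells. Of 30 genes of G2 and M phase a cell had a median of 1.5 with at least 5 reads, at most 8 (cell 30), and 18 cells had none, where the medians were 1 in p27 low, 21 in p27 negative and 1 in LPS p27 high cells. These counts use all reads of a cell, and median gene reads were 229696 here and 390369 in p27 negative cells. With at least 1 read at 50000 reads per cell, the medians were 5 here, 5 in p27 low, 21 in p27 negative and 4 in LPS p27 high cells. By that measure 1 cell here had none. Their summed level was 28.9 to 1323 CPM per cell (median 242) against medians of 272 in p27 low, 6231 in p27 negative and 202 in LPS p27 high cells. Mki67, the proliferation antigen Ki-67, stood at 11.6 CPM (0 to 429 per cell, median 6.65) and at 804 in p27 negative and 64.2 in p27 low cells. Plk1, the mitotic polo-like kinase, stood at 10.5 CPM with 54.8% of its reads in cell 12, and at 4.82 without it. All 30 genes were at least 2-fold lower here than in p27 negative cells (median -5.13), where 7.68% of all genes were. Against p27 low cells 11 members had at least 20 CPM, of which 6 were lower and 3 higher. The shares over all genes there were 6.21% lower and 7.71% higher. Without the top cell of each gene 7 members were left, with 3 lower and 1 higher.

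Genes of DNA replication were more widely read. Of 30 S phase genes a cell had a median of 8 with at least 5 reads, none had 0, and 20 of 84 cells had 15 or more, led by cell 80 with 28. The summed level ran from 188 to 14980 CPM per cell with a median of 2117. Mcm6, a subunit of the replicative helicase, stood at 592 CPM (0 to 2920.4 per cell, median 259), and Mcm5 at 387 (0 to 2137, median 20.01), with 11 cells over 1000 CPM. Pcna, the sliding clamp of the polymerases, was detected in 89.3% of cells at a median of 83.2 CPM. Rrm2, a subunit of ribonucleotide reductase, was low at 13.9 CPM, against 298 in p27 negative cells, and Tyms, thymidylate synthase, stood at 77.1 against 309. Of the 30 genes 11 were at least 2-fold lower than in p27 negative cells and 1 higher (median -0.78), and against p27 low cells 1 of 28 was lower and 3 higher (median 0.28). Over all genes measured, 7.68% were lower and 11.4% higher than in p27 negative cells, and 6.21% and 7.71% than in p27 low cells. The number of cells with 15 or more of the 30 genes was 20 of 84 here, 21 of 93 in p27 low, 61 of 95 in p27 negative and 27 of 93 in LPS p27 high cells. These counts use all reads of a cell. With at least 1 read at 50000 reads per cell, they were 32, 33, 65 and 30.

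Regulators of the step from G0 to S included Ccnd2, cyclin D2, detected in every cell at 838 CPM (112 to 2529 per cell, median 776), and its partner Cdk4 at 804 CPM (median 618). Ccnd1 stood at 25.9 CPM in 16.7% of cells and Ccnd3 at 306 in 80.95%. Cdk6, the kinase linked to exit from quiescence, stood at 334 CPM with a median of 122 per cell, and at 618 and 626 in p27 low and p27 negative cells. Across the 84 cells Cdk6 and Procr had a rho of -0.48. Among inhibitors and pocket proteins Cdkn2a and Cdkn2b had no read, Cdkn1a stood at 3.32 CPM with 80.6% of its reads in cell 78 (0.652 without it), Cdkn2c at 10.2 CPM against 58.3 in p27 negative cells, and Cdkn2d at 51.2 against 177. Rbl2, the pocket protein p130 of resting cells, stood at 94.2 CPM in 34.5% of cells and at 48.1, 41.4 and 41.5 CPM in p27 low, p27 negative and LPS p27 high cells. Of 11 members with at least 20 CPM none was 2-fold apart from p27 low cells in either direction (median -0.05), and of 14 against p27 negative cells 3 were higher and 4 lower. Cdkn1c, 1 of the 4 markers, was among the 3 higher. Over all genes measured, 11.4% were higher and 7.68% lower than in p27 negative cells.

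Transcription factors of stem cells were widely present. Lmo2 had the most reads, 1063 CPM (0 to 2870.1 per cell, median 949), followed by Meis1 at 551 in 97.6% of cells, Lyl1 at 383 in 91.7%, Hlf at 273 in 84.5% and Gata2 at 264 in 80.95%. Hlf, a factor that marks stem cells and falls on differentiation, ran from 0 to 1135 CPM per cell with a median of 172.5, and stood at 164.5 CPM in p27 low, 93.2 in p27 negative and 171 in LPS p27 high cells. Mecom, whose product Evi1 maintains quiescence, stood at 81.3 CPM with a median of 16.1. Prdm16 stood at 49.9 CPM in 30.95% of cells, and Gfi1 at 7.41 CPM, of which 85.1% came from cell 95 (1.12 without it). Set beside p27 low cells, 1 of 20 factors was at least 2-fold higher and none lower (median -0.15), where 7.71% of all genes were higher and 6.21% lower. Against p27 negative cells 5 of 19 were higher (median 0.59), where 11.4% of all genes were. These 5 were Hlf, Hoxa7, Mllt3 (198 against 51.6 CPM), Prdm16 and Tcf15.

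The list of 37 stem cell surface and dormancy genes held genes read in every cell beside genes read in few. Txnip, an inhibitor of thioredoxin that limits glucose uptake, stood at 2236 CPM (88.2 to 7409 per cell, median 2323), and Angpt1, the ligand of the Tie2 receptor, at 817 (9.97 to 2575, median 659). Cd81 and Cd63, tetraspanins of the cell surface and of endosomes, were detected in 96.4% and 97.6% of cells at 836 and 249.9 CPM. Tek, the Tie2 receptor, and Fgd5 were detected in 27.4% and 23.8% only. Cd82, a tetraspanin tied to the rest of stem cells, was uneven at 137 CPM in 45.2% of cells and stood at 25.8 and 26.8 CPM in p27 low and p27 negative cells. Against p27 low cells 9 of 36 members were at least 2-fold higher and 3 lower (median 0.46), against p27 negative cells 19 of 35 were higher and 3 lower (median 1.18), and against LPS p27 high cells 9 of 36 were higher and 4 lower (median 0.43). The 3 lower than in p27 low cells were Vwf, Cd9 (163 against 361.5 CPM) and Clca3a1 (10.2 against 33.3). Gstm1, a glutathione transferase, Cish, an inhibitor of cytokine signals, and Ltb, lymphotoxin beta, stood at 299, 264 and 213 CPM here and at 62.8, 36.6 and 42.9 in p27 negative cells.

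Across the 84 cells the summed surface and dormancy level was lower where that of S phase genes was higher (rho -0.54, on reads thinned to 50000 per cell, and -0.63, -0.44 and -0.57 within the 3 ranges of cell numbers). It was also lower where more genes were detected at 50000 reads (rho -0.61, and -0.87, -0.62 and -0.40 within them). Its rho with gene reads per spike-in read was -0.33 over all cells and -0.74, -0.62 and -0.37 within the ranges. The sum of the 4 markers was higher with the sum of this list, the shared Sult1a1 and Procr left out (rho 0.53, and 0.34, 0.63 and 0.49 within the ranges). It was also higher with the interferon genes (rho 0.52, and 0.72, 0.50 and 0.38 within them). The sum of the G1 cyclins and kinases was higher with the number of genes detected (rho 0.51, and 0.66, 0.30 and 0.48 within them). Of 666 pairs of lists and cell measures, 5 had a rho of 0.5 or more in size over all cells, and all 5 are named in this paragraph. Each is a description over 84 cells that share depth and library preparation. A level in CPM is a share of a cell's reads, so all genes cannot be higher together, and the part of RNA content per cell in these relations was not tested.

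**Figure D5:**
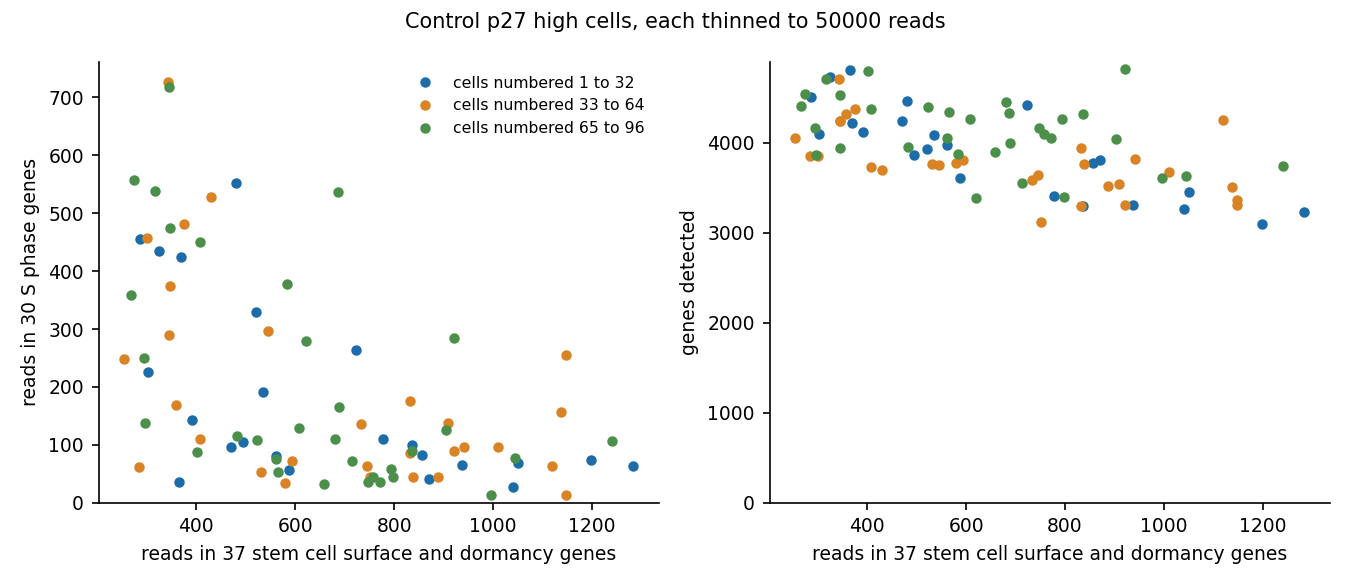
Reads in the 30 S phase genes (left) and number of genes detected (right), on the vertical axes, against reads in the 37 surface and dormancy genes in each of the 84 cells thinned to 50000 reads, 1 point per cell coloured by range of cell numbers. Cells with most S phase reads lie at low surface and dormancy reads, with rho of -0.54, and the number of genes declines along the same axis, with rho of -0.61.

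MHC class II genes, which present peptides to T cells, were unevenly spread over the 84 cells. Cd74, the invariant chain, stood at 176 CPM with a median of 2.71 and up to 2439 per cell, and 41 cells had none. H2-Aa stood at 142 CPM (0 to 2168 per cell, 23.9% of reads in cell 56, 110 without it), H2-Ab1 at 105 and H2-Eb1 at 47.7. Cd74 and H2-Aa had a rho of 0.48 and Cd74 and Ly6a one of 0.52. Cd74 was lower in p27 low (55.9 CPM) and p27 negative cells (31.5) and higher in LPS p27 high cells (858). Of the B cell list 8 of 12 genes had a read, and its highest cells, 96, 87 and 52, held 843, 595 and 592 CPM of it beside 1005.5, 501.5 and 241.9 CPM of Cd74. In cell 96 only 1 gene of that list, Cd79b, had a read. The cells with most Cd74 were others, 72, 20 and 70, at 2439, 2391 and 2346 CPM. Of the monocyte, macrophage and dendritic list, which holds 3 of the class II genes, 10 of 14 had a read. Its sum had a rho of -0.02 with that of the B cell list over the 84 cells. The part of such cells in the class II levels was not tested. Interferon genes beyond class I and Ifitm were low: Bst2 stood at 65.2 CPM in 65.5% of cells, Gbp2 at 58.3, Irf7 at 17.3, Ifit1 at 7.55 (4.68 without cell 59) and Isg15 at 2.90 (1.72 without cell 36). Of 28 interferon genes with at least 20 CPM, 20 were at least 2-fold lower here than in LPS p27 high cells and none higher (median -2.24), with Ifit1 at 982 and Gbp2 at 918 CPM after LPS. Beside p27 low cells 1 of 23 was higher and none lower (median 0.19), where 7.71% of all genes were higher and 6.21% lower.

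Receptors for the LPS signal were thin at baseline. Tlr4, the LPS receptor, stood at 12.2 CPM with 49.8% of reads in cell 81 (6.21 without it), its partner Ly96 at 26.5 CPM with 44.6% in cell 14 (14.99 without it), and Tlr2 at 70.05 CPM in 16.7% of cells. Tlr2 stood at 20.3 CPM in p27 low and 9.23 in p27 negative cells. Cxcr4, the receptor that holds stem cells in the marrow, stood at 9.90 CPM in 19.05% of cells.

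Genes of calcium entry and storage were read in part of the cells. Saraf, which turns off store-operated entry, was detected in 95.2% at 559 CPM (median 457), Atp2a3, a calcium pump of the endoplasmic reticulum, in 67.9% at 218 and Orai1, the entry channel, in 58.3% at 116 (0 to 638 per cell, median 36.2). Stim1, the store sensor, stood at 37.5 CPM in 28.6%, Mcu, the mitochondrial uniporter, at 12.7 in 15.5% and Cd38 at 13.5 in 8.33%, with 47.1% of its reads in cell 64 (7.20 without it). Of 22 members none was at least 2-fold higher than in p27 low cells and 1 lower (median -0.18), and against p27 negative cells 4 of 20 were higher, Orai1 among them at 41.96 CPM there, and 1 lower (median 0.39). Over all genes measured, 7.71% were higher and 6.21% lower than in p27 low cells, and 11.4% and 7.68% than in p27 negative cells. Among calcium-binding proteins Calm2 stood at 540 CPM (median 556) and S100a10 at 162, and against p27 low cells 1 of 20 members, Rcan1, was at least 2-fold higher and none lower.

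Pygm was not the only phosphorylase of glycogen. Pygl, the liver form, stood at 183 CPM in 53.6% of cells and Pygb, the brain form, at 99.2 in 29.8%, and per length the levels of Pygl, Pygb and Pygm were 70.8, 54.96 and 76.5 TPM. Pygl and Pygb differed less from the other control groups, at 205 and 66.8 CPM in p27 low and 126 and 77.7 in p27 negative cells. Gys1, glycogen synthase, stood at 42.9 CPM with 32.98% of its reads in cell 85 (29.4 without it), and Gbe1, the branching enzyme, at 58.2 with 34.5% in cell 56 (38.8 without it). Over all genes measured, 7.71% were higher and 6.21% lower than in p27 low cells. Of 13 glycogen genes 1 was 2-fold higher and 2 lower than in p27 low cells (median -0.16). Of 22 glycolysis genes 1 was higher, the aldolase gene Aldoc (94.2 against 22.2 CPM), and 1 lower (median 0.01), and Ldha, lactate dehydrogenase, was abundant at 1059.9 CPM in 98.8% of cells. Aldoc stood at 5.89 CPM in p27 negative cells and was detected in 33.3% of the 84 cells. Hif3a, a member of the hypoxia-inducible factors, stood at 48.5 CPM with 29.1% of its reads in cell 12 (34.9 without it), against 10.3 in p27 low and 2.84 in p27 negative cells, while Hif1a was at 53.4, 46.99 and 66.5. The 43 nuclear genes of the respiratory chain were detected in a median of 82.1% of cells, and of 42 measured none was 2-fold apart from p27 low or p27 negative cells, with medians of -0.25 and -0.46.

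In the pathway of FoxO factors and mTOR, Sesn1, a sestrin, stood at 236 CPM (0 to 2202 per cell, median 59.6), Pik3r1, a regulatory subunit of PI3 kinase, was detected in 64.3% of cells with up to 2499 CPM, and Foxo3 stood at 72.5 CPM in 64.3%. None of 18 members was 2-fold apart from p27 low cells (median -0.33). Over all genes measured, 7.71% were higher and 6.21% lower than in p27 low cells, which is the scale for the lists that follow here. Of 17 genes of DNA methylation and Polycomb 2 were at least 2-fold higher than in p27 low cells, Asxl1 and Cbx7 (59.9 against 17.7 CPM), and Dnmt3a was lower (44.4 against 130). Ezh2, the histone methyltransferase of dividing cells, stood at 73.9 CPM here and 210 in p27 negative cells, and Ezh1 at 60.7 and 31.98. Of 6 BCL2 family genes with at least 20 CPM, Bcl2 (48.95 against 131) and Bcl2l1 (21.1 against 67.1) were lower than in p27 low cells, and Mcl1 had the most reads at 186 CPM. Among 20 imprinted genes Ndn stood at 160 CPM, Cdkn1c at 49.1, and H19, Dlk1 and Igf2 were at 4.74, 2.35 and 0.829 CPM, with 83.5% of the H19 reads in cell 72 (0.791 without it).

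By the rule that takes the smallest of the 3 differences, the genes highest in these cells against all 3 other groups were Pygm, Sytl1, Gimap1os, Prmt2, 4931406C07Rik, Ccdc166, Atp8b2, Ankrd13d, Ctsh and Nek6. Their smallest log2 differences ran from 1.84 (Pygm, for which it was 0.17, 3.51 and 1.497 in the 3 ranges of cell numbers) to 1.56 (Nek6). Nek6, a mitotic kinase of the NIMA family, stood at 149 CPM here, and Ccdc166 was detected in 32.1% of cells at 124 CPM (0 to 713 per cell) against 40.2, 32.3 and 17.03 in p27 low, p27 negative and LPS p27 high cells. Ctsh, a lysosomal protease, stood at 51.99 CPM against 16.9, 3.78 and 16.6, but at 20.2 in cells 1 to 32, in which it lay below the p27 low cells and the LPS p27 high cells of the same numbers. Gimap1os is named for the strand opposite Gimap1, and where strand was not counted reads of such a pair cannot be told apart. The genes lowest here against all 3 were Selenoi, Herc6, Alg8, Bcl2l1, Chek1, Pgm2, Trmt6, Man2c1, Pank4 and Fyb. Bcl2l1, the gene of the survival protein Bcl-xL, stood at 21.1 CPM (14.5 without cell 95, which held 32.1% of its reads) against 67.1, 62.3 and 74.7. Chek1, the checkpoint kinase of replication, stood at 12.6 CPM, and Pgm2, a phosphoglucomutase, at 25.9 against 94.6, 63.9 and 68.4. Pank4, Pgm2, Trmt6 and Man2c1 were higher here than in 1 of the other groups in 1 range of cell numbers. Of the genes at least 2-fold higher here than in p27 low, p27 negative and LPS p27 high cells, 68.8%, 72.9% and 69.7% were higher in each of the 3 ranges. Of those at least 2-fold lower, 68.65%, 87.5% and 79.6% were lower in each. The genes were picked on the same cells that make up the ranges, so these shares are no independent check.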

How the data were processed

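Full-length cDNA of single sorted cells was made after Picelli et al., and Nextera XT libraries were sequenced on an Illumina HiSeq, per the labels' protocols. Values are raw read counts per gene, deposited by the authors in 2 tables of 46175 rows each, with reads aligned by GSNAP to mm10 and counted with HTSeq (0.6.0), per the submitters' processing notes. The strand setting and the annotation release were not given in the sources used here.

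All 576 columns were matched to samples by name. The 92 spike-in rows (2.92% of reads in the 84 cells) and 5 summary rows of the counter, such as reads not aligned (60.2%), were left out of library totals. GENCODE M21 gave names and exon lengths for 45229 of 46078 gene rows. Counts were summed over cells to CPM and TPM, and differences are log2 of CPM plus 1 for genes with at least 20 CPM in either group. Detection, spread and Spearman's rho used reads thinned to 50000 per cell (seed 1). CV2 was measured for genes with a mean of at least 1 thinned read and detection in at least 10% of cells, against the running median of 101 genes. Neither doublet calling nor clustering was done, and all cells of a group were used whatever they expressed. Python 3.11.15 was used with numpy 2.4.6, pandas 2.3.3, scipy 1.17.1 and matplotlib 3.10.9, and edgeR 4.0.16 in R 4.3.3 gave the TMM factors of 1 alternative. The code was tested on simulated data.

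No test was made, since no animal is named and each group is 1 sample. Alternatives were depth of thinning, filters on cells and on genes, pseudocount, scaling, each gene without its top cell, and each range of cell numbers alone. Named genes were the 4 markers and the gate genes, the 15 by TPM, the 15 most and least spread, the 10 highest and 10 lowest against the other 3 groups, up to 6 members per list by CPM with members at or near 0 or of defining role, and the genes most like each marker. Genes outside this rule, and cells 4 and 85, were chosen after their values were seen. The members and gene lists were chosen with earlier results of these data known. Some genes that the rule would name are not reported here.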

Additional observations from a re-analysis of the deposited data

How the results depend on the processing

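Of 149 alternative values for the main results, 109 stayed close to the value reported and 40 moved. Close meant within the 95% interval for a share of cells and within a fixed ratio for a count. For the 15 most spread genes, 10 in common, as without the top cell of each gene, still counted as close. The filter at 10% mitochondrially encoded reads left all 84 cells in, so values that rest on these cells alone could not move under it. Pygm was detected in 13.04% of cells 1 to 32, and Cdkn1c in 38.1% of all cells without thinning. Genes in at least 50% of cells numbered 4254 at 200000 reads and 4594 without thinning, and genes per cell 5301 and 5447.5. Of the 15 most spread genes 7 recurred at 200000 reads, 7 among cells of 200000 reads or more, and 2, 3 and 4 in the 3 ranges of cell numbers. Genes at least 2-fold apart, with a limit of 5 CPM, of 50 CPM, and in cells 1 to 32, 33 to 64 and 65 to 96, were as follows. Against p27 low cells 1329, 247, 1658, 1557 and 1405 were higher and 1057, 220, 1593, 1396 and 1234 lower. Against p27 negative cells 1746, 465, 1850 and 1788 were higher, the last range staying close, and 1123, 367, 1581, 1406 and 1307 lower. Against LPS p27 high cells 1658, 411, 2091, 1701 and 1528 were higher and 1042, 330, 1421, 1342 and 1146 lower. The limits of 5 and 50 CPM change how many genes are counted and the ranges use fewer cells. Of 448 alternative values for named genes 301 stayed close, 142 moved and 5 that were at least 2-fold apart reversed: Ctsh to -0.37 against p27 low and Trmt6 to 0.064 against p27 negative in cells 1 to 32, Man2c1 to 0.41 against p27 negative and Pank4 to 1.17 against LPS p27 high in cells 33 to 64, and Pgm2 to 0.20 against p27 negative in cells 65 to 96. Sult1a1, under 2-fold from LPS p27 high cells (0.17), also changed sign, to -0.75 in cells 1 to 32, -0.04 in cells 65 to 96 and -0.035 with the mean of per-cell CPM. The cause of these sign changes was not tested. Depth limits detection of genes near 1 read in 50000. No paired analysis was possible because no result comes from a test and what cell numbers stand for is not stated.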

Other observations

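Scn4b, the gene of a sodium channel subunit, followed Slc34a2 more closely than any other pair looked up. It stood at 241 CPM in the 84 cells, and its rho with Slc34a2 was 0.90 over all cells and 0.79, 0.84 and 0.82 within the 3 ranges of cell numbers. The pair was chosen after its values were seen, and the genes lie on different chromosomes. Tmem176a and Tmem176b, a neighbouring pair of membrane protein genes, had a rho of 0.30. Procr had a rho of 0.41 with Hlf, of -0.48 with Cdk6 and of 0.22 with Ly6a, which was part of the sort.

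Reads of Sult1a1 were found in 8 of the 12 cells left out for low depth, of Procr in 7 and of Kit in 12. Rcan1, a calcineurin regulator, stood at 33.3 CPM in the 84 kept cells and at 2.50 in p27 low cells.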
